A study of Homo sapiens with 6 samples.

Results

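The genes described here are the gelatinases MMP2 and MMP9, the membrane-type metalloproteinases MMP14 (MT1-MMP) and MMP15, epilysin (MMP28), the tissue inhibitors TIMP1, TIMP2 and TIMP3, the membrane-anchored inhibitor RECK and the inducer basigin (BSG). They were chosen by gene symbol, 10 of the 19775 genes that the array annotation names singly, and every probe set annotated to them was taken, 29 in number. The cells compared were HSC-3 tongue carcinoma cells, an established human squamous line, made to overexpress trypsin-2 (labelled TAT-2, 3 arrays), and HSC-3 carrying a control vector and labelled as expressing no trypsin-2 (3 arrays). All cells were cultured for 48 h with serum and hydrocortisone and trypsinized before RNA extraction. The labels state neither whether each group was 1 clone or a pool nor whether its replicates were separate cultures. The p-values therefore cover the spread among these 6 arrays alone, which may be technical.

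Gelatinases cleave denatured collagen and the type IV collagen of basement membranes, and are secreted as inactive proenzymes. MMP14 on the cell surface activates the MMP2 proenzyme, with TIMP2 as the bridge that holds the proenzyme in place, while TIMP1 binds the MMP9 proenzyme. RECK restrains several of these enzymes at the cell surface, and BSG, also called EMMPRIN, induces metalloproteinase production and escorts monocarboxylate transporters to the membrane. Trypsin-2 can activate metalloproteinase proenzymes as proteins, which an RNA measurement does not read.

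The probe sets of the introduced gene, PRSS2, which encodes trypsin-2, that passed the filter did not bear out the labels. The brighter PRSS2 probe set (205402_x_at) gave signals of 20.4, 13.8 and 14.6 on the arrays labelled TAT-2, against 19.6, 80.8 and 83.2 on those labelled vector (exact two-sided permutation p = 0.2, where 3 arrays against 3 cannot go below 0.1). The dimmer one (216470_x_at) averaged 19.1 ± 1.05 in TAT-2 and 38.4 ± 15.9 in vector (SD, n = 3 each). Its TAT-2 arrays (17.9 to 19.9) all lay below its vector arrays (22.6 to 54.5, exact two-sided permutation p = 0.1). Limma called neither (adjusted p = 0.467 and 0.56, and 0.0506 and 0.127 with the replicate block described below). PRSS3 (213421_x_at) averaged 18.2 ± 6.03 in TAT-2 and 18.4 ± 7.45 in vector (SD, n = 3 each). Another probe set, annotated to PRSS2 and PRSS1 together (205869_at), was near background, at 2.20 to 3.56 in TAT-2 and 0.816 to 1.41 in vector, higher on all 3 TAT-2 arrays and untested. The other PRSS3 probe set (207463_x_at), also below the filter, averaged 9.93 in TAT-2 and 11.1 in vector. Whether these probe sets read the introduced sequence was not tested. Groups are therefore named by their label, and every direction rests on it. Array medians lay between 14.8 and 17.6. Of 10 markers of squamous epithelium, 7 had a probe set and all 7 passed the filter described below, with the basal keratin KRT14 at signals of 6162 to 7649 in TAT-2 and 4554 to 7662 in vector. The other 3 were not analysed here. The adhesion molecule CDH1 was called lower in TAT-2 with the replicate block described below (limma adjusted p = 0.00826) and not called without it (limma adjusted p = 0.527). Its part in the results was not tested. It was the only 1 of the 7 called. The keratins KRT5 and KRT14 had positive log2 fold changes (0.31 and 0.22, limma adjusted p = 0.133 and 0.18 with the block). The median of the 7 was 0.012. Both replicate 1 arrays stood apart in a measure of RNA labelling: for ACTB, the 3' signal exceeded the 5' signal by a log2 difference of 0.21 (TAT-2) and 0.25 (vector) in replicate 1, and 0.46 to 0.59 in replicates 2 and 3. The same difference for GAPDH was small throughout and ran the other way, at 0.032 (TAT-2) and 0.09 (vector) in replicate 1 and -0.005 to 0.021 in replicates 2 and 3.

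None of the 10 genes passed the test between the groups. The filter kept probe sets whose average log2 value was at least the median of the whole table, a signal of 15.2, and 23 of the 29 passed, representing 9 of the 10 genes. Limma on log2(signal + 16), adjusted by Benjamini-Hochberg over all 27307 tested probe sets, called 0 of the 23. At an unadjusted p under 0.05 lay 1 of them, against 7.86% of all tested probe sets. It called 8 probe sets of the whole table (0.0293%). With the replicate number as a block it again called 0 of the 23, and 4 had an unadjusted p under 0.05, where 1424 (5.21%) of all probe sets were called and 18.5% lay at an unadjusted p under 0.05. By sign, 9 of the 23 were higher in TAT-2 and 14 lower. Their median log2 fold change was -0.08, against -0.01 over all tested probe sets, and the median absolute log2 fold change was 0.12 against 0.13.

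MMP2, gelatinase A, had the lowest fold change of the 23 tested probe sets. Its only tested probe set (201069_at) gave signals of 27.5, 29.5 and 16.8 in TAT-2 replicates 1, 2 and 3, against 40.3, 45.1 and 40.2 in vector. All 3 TAT-2 arrays lay below all 3 vector arrays. TAT-2 and vector averaged 24.6 ± 6.87 and 41.9 ± 2.77 (SD, n = 3 each), and the log2 fold change was -0.52 ± 0.17 (SE), 0.695-fold, on the log2(signal + 16) scale, which understates the change of dim probe sets. Matched by replicate number, the difference was -0.37, -0.42 and -0.78. Its limma adjusted p was 0.48, so it was not called, and the blocked fit gave 0.108 (limma), where the 95% interval ran from 0.538- to 0.899-fold. A dimmer MMP2 probe set (1566678_at), below the filter and so untested, gave 11.6, 5.52 and 7.78 in TAT-2 and 18.3, 13.3 and 13.6 in vector, again without overlap. The third MMP2 probe set (1566677_at) gave at most 5.12 on any array and had no such order. In all, 3 of the 23 tested probe sets had groups without overlap (13.0%), against 14.1% of all tested probe sets.

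MMP9, gelatinase B, is read by 1 probe set (203936_s_at). Its signals were 77.3, 129.6 and 132 in TAT-2 replicates 1, 2 and 3, against 52.6, 106.7 and 140.2 in vector. The groups overlapped, and both replicate 1 arrays were the lowest of their group. TAT-2 and vector averaged 113 ± 30.9 and 99.8 ± 44.2 (SD, n = 3 each), which is a log2 fold change of 0.20 ± 0.31 (SE, limma adjusted p = 0.956). By replicate number the difference was 0.44, 0.25 and -0.08. With the block the interval ran from 0.953- to 1.39-fold (adjusted p = 0.44), and without vector replicate 1 the log2 fold change was -0.13.

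MMP14 is the MT1-MMP of this set, the surface activator of the MMP2 proenzyme, and was read by 4 tested probe sets. The one of highest mean (160020_at) gave 770.1, 325 and 294 in TAT-2, against 619, 339 and 324 in vector. Replicate 1 was the high array in each group, and replicates 2 and 3 lay close together. TAT-2 and vector averaged 463 ± 266 and 428 ± 166 (SD, n = 3 each), which is a log2 fold change of 0.04 ± 0.37 (SE, limma adjusted p = 0.996). With the block the SE was 0.09 and the interval 0.896- to 1.18-fold (adjusted p = 0.876). The other 3 probe sets had log2 fold changes of 0.09, -0.12 and -0.28, so that 2 of the 4 were positive and 2 negative. Their signals were 377, 147 and 125 in TAT-2 and 262, 148 and 148 in vector (202827_s_at), 266, 102 and 137 in TAT-2 and 253, 135 and 144 in vector (202828_s_at), and 205, 99.6 and 71.8 in TAT-2 and 189, 174 and 86.5 in vector (217279_x_at). All 3 were highest on replicate 1 of each group. Without TAT-2 replicate 1 the log2 fold change of 160020_at was -0.39.

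MMP15, the second membrane-type enzyme, had no tested probe set. Its 2 probe sets gave 1.05 to 16.1 in TAT-2 and 1.73 to 13.8 in vector, with no order between the groups. MMP28, epilysin, an enzyme of keratinocytes, had 4 tested probe sets of 5. The one of highest mean (239272_at) gave 34.3, 63.99 and 44.9 in TAT-2, against 51.0, 53.6 and 58.9 in vector. The TAT-2 arrays spanned the vector arrays. All 4 log2 fold changes were slightly negative, from -0.17 to -0.08, with limma adjusted p of 0.937 to 0.98. The other 3 tested ones gave 18.3 to 49.6 in TAT-2 and 17.2 to 48.7 in vector (239273_s_at, 224207_x_at and 222937_s_at), with overlap in each. The fifth (219909_at) was untested, at 1.98 to 5.11 in TAT-2 and 1.70 to 10.0 in vector.

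**Figure D1:**
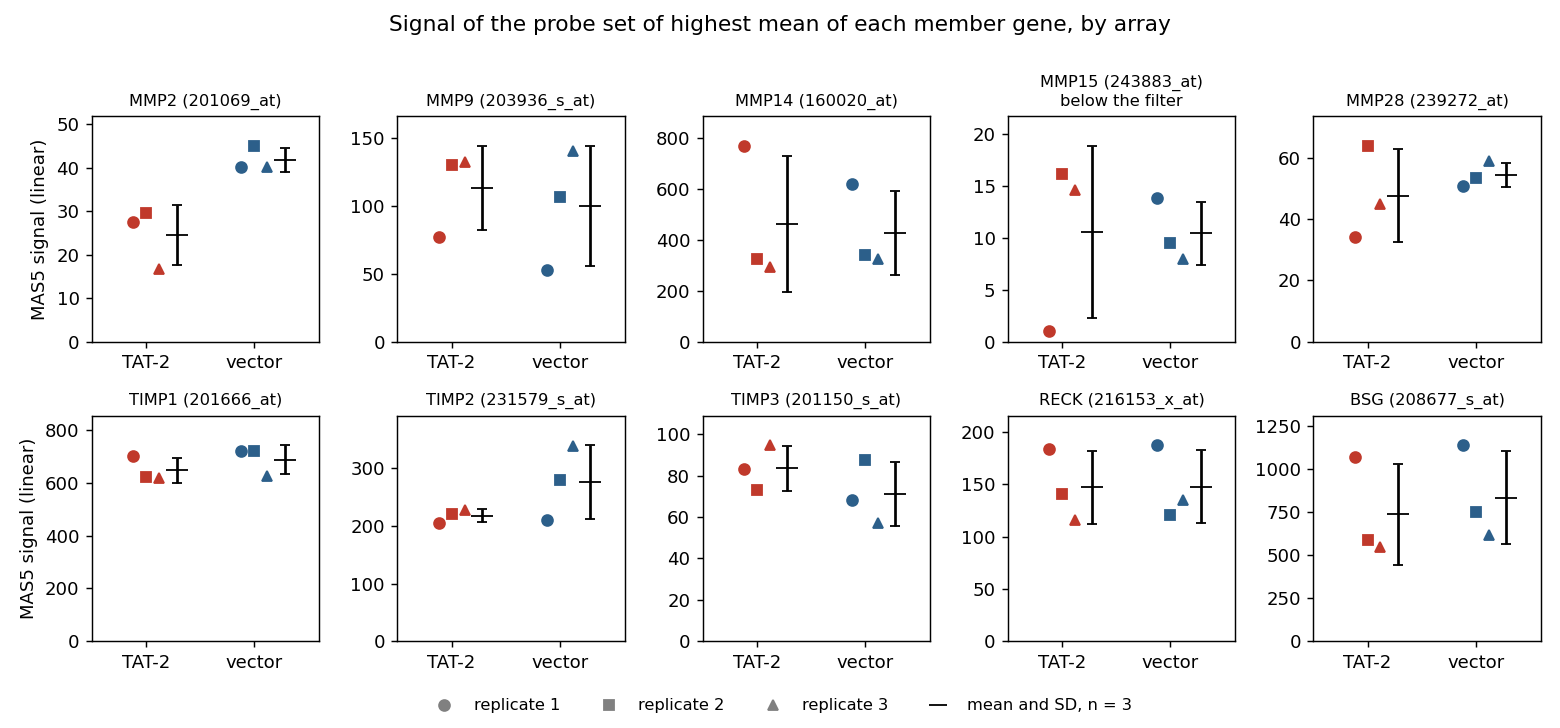
Signal of the probe set of highest mean of each of the 10 genes on each array (linear MAS5 signal, each panel with its own scale from 0), TAT-2 in red and vector in blue, with marker shape giving the replicate number and black bars the mean ± SD (n = 3). The MMP2 groups do not overlap (16.8 to 29.5 in TAT-2, 40.2 to 45.1 in vector), while MMP14 and BSG are highest and MMP9 lowest on replicate 1 of both groups.

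TIMP1, the inhibitor that binds the MMP9 proenzyme, had the smallest SE of the 23 tested probe sets without the block. Its probe set (201666_at) gave 702, 624 and 618 in TAT-2, against 719, 719.7 and 626 in vector. TAT-2 and vector averaged 648 ± 47.2 and 688 ± 54.2 (SD, n = 3 each), which is a log2 fold change of -0.08 ± 0.11 (SE, limma adjusted p = 0.948). With the block the interval was 0.849- to 1.05-fold.

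TIMP2, the bridge between MMP14 and the MMP2 proenzyme, had 3 tested probe sets, all with negative fold changes. The one of highest mean (231579_s_at) gave 205, 220.4 and 228 in TAT-2, against 210.2, 279.8 and 338 in vector, and the groups overlapped through vector replicate 1. Another (224560_at) gave 166, 134 and 154 in TAT-2, against 187, 180.5 and 189.8 in vector, without overlap. The third (203167_at) gave 57.9, 46.1 and 50.5 in TAT-2, against 63.6, 42.0 and 67.7 in vector, with overlap. Their log2 fold changes were -0.30 ± 0.17, -0.28 ± 0.12 and -0.11 ± 0.18 (SE). None was called (limma adjusted p of 0.641 to 0.958, and 0.125 to 0.756 with the block). With the block and without replicate 1 of both groups, 231579_s_at was called lower (log2 fold change -0.43, limma adjusted p = 0.0451), the only call of a member under any alternative run. That fit leaves 2 arrays per group and was added after the data were seen.

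TIMP3, an inhibitor held in the extracellular matrix, had 4 tested probe sets, all with positive fold changes of 0.09 to 0.37 on the log2 scale. The one of highest mean (201150_s_at) gave 83.0, 72.8 and 94.6 in TAT-2, against 68.4, 87.5 and 57.1 in vector. The dimmest (201148_s_at) gave 32.8, 34.5 and 44.3 in TAT-2, against 23.5, 31.2 and 20.9 in vector, the only tested probe set of the 23 with all TAT-2 arrays above all vector arrays. The remaining ones were 201147_s_at, at 74.0 to 79.9 in TAT-2 and 63.6 to 75.9 in vector, and 201149_s_at, at 60.5 to 98.6 in TAT-2 and 58.2 to 78.6 in vector, both with overlap. None was called (limma adjusted p of 0.662 to 0.976, and 0.303 to 0.815 with the block).

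RECK had 4 tested probe sets of 5, and they gave no common direction. The one of highest mean (216153_x_at) gave 184, 141 and 116 in TAT-2, against 187, 121 and 135 in vector, a log2 fold change of -0.01 ± 0.20 (SE). It turned to 0.002 with quantile normalization and 0.001 with array medians centred. Another (1558116_x_at) gave 77.8, 80.7 and 80.6 in TAT-2, against 49.5, 62.7 and 79.8 in vector, at 0.28 ± 0.17. The other two tested ones were at -0.13 (1558115_at, 50.2 to 69.1 in TAT-2 and 54.2 to 75.3 in vector) and 0.02 (205407_at, 15.8 to 38.8 in TAT-2 and 15.5 to 29.7 in vector), and limma adjusted p ran from 0.796 to 0.997. The fifth probe set (216156_at) was untested, at 0.432 to 4.76 in TAT-2 and 0.358 to 3.19 in vector. Probe sets whose names end in _x_at can read related sequences, which was not tested here.

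BSG, the inducer, is read by 1 probe set (208677_s_at), with signals of 1070.3, 589 and 544 in TAT-2, against 1135, 748 and 615 in vector. As for MMP14, replicate 1 was the high array in each group. TAT-2 and vector averaged 735 ± 292 and 833 ± 270.4 (SD, n = 3 each). Within each replicate number the TAT-2 array was lower, by a log2 difference of -0.08, -0.34 and -0.17, with a mean of -0.20 ± 0.29 (SE) without the block and ± 0.07 with it. Limma called it in neither fit (adjusted p = 0.954, and 0.151 with the block, with an interval of 0.783- to 0.972-fold).

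**Figure D2:**
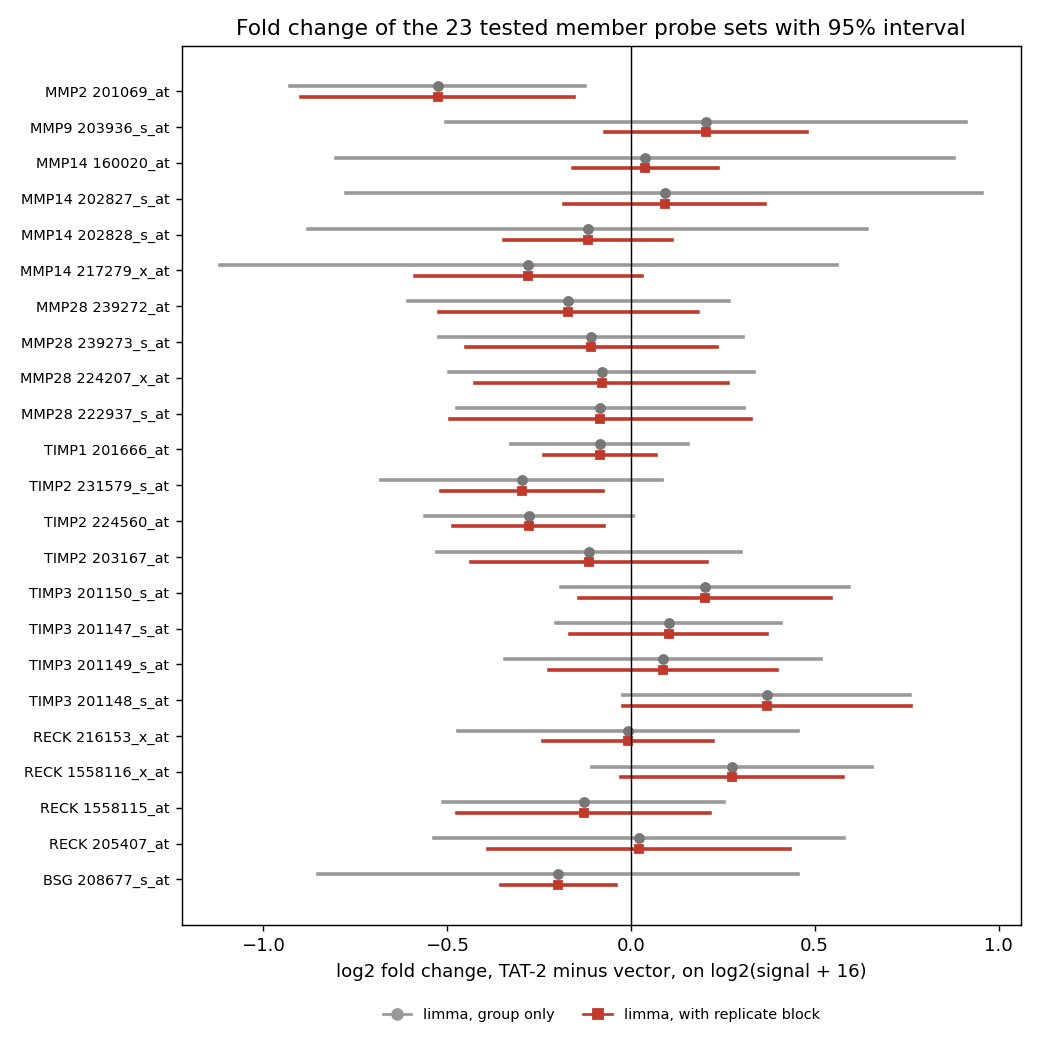
Log2 fold change (TAT-2 minus vector, on log2(signal + 16), horizontal axis) of the 23 tested probe sets with its 95% interval, in grey from limma with group only and in red with the replicate block. Of the 23 red intervals, 19 cover 0, all but those of MMP2, BSG and TIMP2 (231579_s_at and 224560_at), and the intervals of the 4 MMP14 probe sets, MMP9 and BSG are much narrower with the block.

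A p above the threshold does not show equal levels, so the blocked intervals were read for what size of difference they leave. Over the 23 probe sets they reached down to 0.538-fold, for MMP2, and up to 1.7-fold, for TIMP3 (201148_s_at). For the probe set of highest mean, 8 of the 9 tested genes had an interval lying within 1.5-fold in either direction, the exception being MMP2, and all 9 lay within 2-fold. Without the block all 9 again lay within 2-fold, but 2 of the 9 within 1.5-fold, TIMP1 (0.798 to 1.11) and RECK (0.722 to 1.37). The widest of the 9 was that of MMP14 (0.574 to 1.84). A dimmer MMP14 probe set (217279_x_at) went beyond 2-fold without the block, down to 0.461-fold. The SE was smaller with the block for 21 of the 23. These intervals are on the log2(signal + 16) scale, which understates the change of dim probe sets such as that of MMP2. With a pseudocount of 1, its log2 fold change and SE were both larger in size. The 2-fold limit therefore holds on this scale alone and does not carry over to the MMP2 signal itself.

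Several of these genes differed more between replicate numbers than between the labels. Replicate 1 differed from the mean of replicates 2 and 3 by an absolute log2 difference of 0.5 or more, averaged over the groups, in 7 of the 23 tested probe sets (30.4%), against 13.1% of all tested probe sets. These were the 4 probe sets of MMP14, BSG, MMP9 and 1 of RECK. MMP14 was higher in replicate 1 on all 4, by a log2 difference of 0.84 to 1.07, with 1.06 to 1.37 in TAT-2 and 0.55 to 0.87 in vector. BSG was higher by 0.81, with 0.90 in TAT-2 and 0.73 in vector, and MMP9 was lower, at -0.65 in TAT-2 and -1.01 in vector. Over all tested probe sets, 2.12% were higher in replicate 1 by 0.8 or more and 1.16% were lower by as much. RECK went both ways, with 0.49 on 216153_x_at and -0.51 on 205407_at. MMP2 (0.06), TIMP1 (0.14) and the 4 TIMP3 probe sets (-0.13 to 0.34) were among the 16 under 0.5. The replicate 1 arrays were set apart after they had been seen to differ, so these differences carry no test. The ACTB 3' to 5' ratio moved with them, that of GAPDH far less, and their part in them was not tested.

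**Figure D3:**
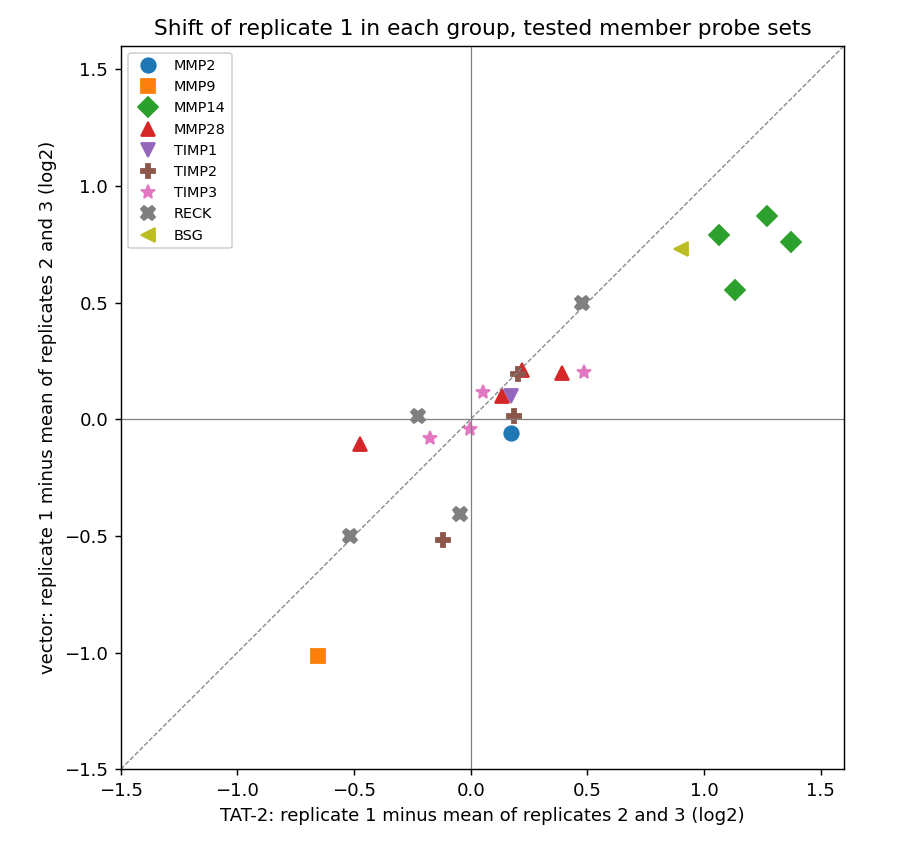
Log2 difference of replicate 1 from the mean of replicates 2 and 3, in TAT-2 (horizontal axis) and in vector (vertical axis), 1 point per tested probe set, with the dashed line marking equal shifts. The 4 MMP14 probe sets and BSG lie at the upper right and MMP9 at the lower left. RECK lies on both sides, at 0.48 in TAT-2 and 0.5 in vector on 216153_x_at, and -0.52 in TAT-2 and -0.50 in vector on 205407_at.

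Because MMP14 and BSG differed together between arrays, their promoter windows are shown, from RefSeq on GRCh38.p14, 250 bases before to 50 after each listed start, 5′ to 3′. Capitals mark the GC box GGGCGG on either strand. MMP14 has 1 window (chr14:22836335-22836634, plus strand) and BSG has 2 (chr19:571033-571332 and chr19:572346-572645, plus strand).
MMP14: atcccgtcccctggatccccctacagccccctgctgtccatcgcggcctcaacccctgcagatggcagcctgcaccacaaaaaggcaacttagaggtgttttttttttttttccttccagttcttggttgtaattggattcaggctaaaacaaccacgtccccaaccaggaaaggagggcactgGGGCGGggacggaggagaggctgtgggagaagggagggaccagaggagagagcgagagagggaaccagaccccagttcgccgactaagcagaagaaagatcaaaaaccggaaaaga
BSG first: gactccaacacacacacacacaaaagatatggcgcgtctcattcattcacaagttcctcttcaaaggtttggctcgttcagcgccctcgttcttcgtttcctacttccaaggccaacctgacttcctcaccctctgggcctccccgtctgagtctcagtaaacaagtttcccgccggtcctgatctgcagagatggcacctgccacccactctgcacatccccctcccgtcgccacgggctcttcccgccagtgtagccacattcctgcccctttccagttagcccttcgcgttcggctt
BSG second: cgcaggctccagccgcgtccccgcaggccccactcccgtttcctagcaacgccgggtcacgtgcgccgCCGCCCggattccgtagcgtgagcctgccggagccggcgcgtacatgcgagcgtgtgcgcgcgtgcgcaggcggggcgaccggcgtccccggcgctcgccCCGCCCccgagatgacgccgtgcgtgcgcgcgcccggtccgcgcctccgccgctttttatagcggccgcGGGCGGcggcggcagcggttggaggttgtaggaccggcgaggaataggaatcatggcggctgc
The MMP14 window holds 1 GC box, the first BSG window none and the second BSG window 3. A GC box is found in 45.0% of the 35116 windows of the table. Of the 10 genes, 6 are matched in that table, with 7 windows in all, and 6 of these hold a GC box. The AP-1 motif TGANTCA, searched on both strands, is in 0 of the 7 and in 7.71% of all windows. A match is a description of letters and not a binding site.

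The genes whose signals ran closest to these over the 6 arrays were taken by Pearson's r of log2(signal + 16), among tested genes with a range of at least 1 on that scale (1300 candidates for MMP9 and for MMP14, 1301 for MMP2). For MMP14 they were GRINA and LENEP (r = 0.996 each), with GRINA at 189, 43.9 and 40.7 in TAT-2 and 132, 49.6 and 52.7 in vector. LENEP was dim on replicates 2 and 3, at 44.9, 13.3 and 10.4 in TAT-2 and 36.1, 15.2 and 11.4 in vector. For MMP9 they were ANKRD37 (r = 0.983) and EME1 (r = 0.971), both lowest on replicate 1 of each group. For MMP2 they were SLC25A29 (r = 0.986) and APOC2 (r = 0.978), both lower on every TAT-2 array than on any vector array. APOC2 was dim, at 9.85, 16.1 and 3.73 in TAT-2 and 22.5, 26.9 and 27.1 in vector, where the filter level was 15.2. Orders shared with a member follow from the choice by r and are no separate result. These are descriptions over arrays that share 2 labels and 3 replicate numbers.

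Around these genes, the rest of the metalloproteinase system was read from 6 lists, each gene by its probe set of highest mean. Among the other metalloproteinases and TIMP4, 7 of the 18 genes with a probe set were tested, and 11 lay below the filter. Of the 7, MMP1 and MMP3 fell with the block (2.66% of all tested probe sets did) and none rose, and MMP13 is given apart because it passed the filter only through its vector arrays. MMP1, the interstitial collagenase, gave 1468, 2264 and 2108 in TAT-2, against 4933, 5470.1 and 4855 in vector, and was called in both fits (log2 fold change -1.40 ± 0.15, SE, limma adjusted p = 0.0386). Its call without the block was lost when any single array other than TAT-2 replicate 1 was left out. MMP3, stromelysin, gave 112, 99.2 and 90.3 in TAT-2, against 233, 215 and 184 in vector, and was called with the block alone (-0.96 ± 0.09, limma adjusted p = 0.000318, and 0.0699 without it). MMP13, a collagenase, was at 7.23 ± 1.45 in TAT-2 and 34.6 ± 15.6 in vector (SD, n = 3 each), with a limma adjusted p of 0.0143 with the block and 0.214 without it. Its TAT-2 mean lay below the filter level, so its fold depends on the pseudocount, and the blocked call was lost with no filter (limma adjusted p = 0.113). These 3 genes belong to the cluster on chromosome 11, which the choice of the 10 members left out. MMP10 of the same cluster gave 73.8, 219 and 103 in TAT-2, against 208, 200 and 209 in vector, with overlap. It was not called (limma adjusted p = 0.626, and 0.0738 with the block). Whether the genes of this cluster and the members differ in response was not tested.

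Among the collagens, laminins and other matrix proteins that gelatinases can cleave, 10 of 17 were tested, and 2 fell with the block and none rose. FN1, fibronectin, gave 69.3, 92.0 and 90.4 in TAT-2, against 185, 213 and 272 in vector (log2 fold change -1.25 ± 0.10, SE with the block, limma adjusted p = 0.000148, and 0.0596 without the block). COL5A1, a chain of type V collagen, gave 36.7, 38.7 and 45.0 in TAT-2, against 77.9, 80.1 and 85.7 in vector (-0.80 ± 0.13, limma adjusted p = 0.00642 with the block and 0.104 without it). All TAT-2 arrays lay below all vector arrays for both genes, and their 4 and 2 other tested probe sets had the same sign. The median of the 10 was -0.09.

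Of the docking and uptake partners, which hold or clear the enzymes at the cell surface, 13 of 14 were tested, and THBS1, thrombospondin, fell with the block (log2 fold change -0.56 ± 0.08, SE, limma adjusted p = 0.00308, and 0.493 without it), with 1 of its 5 other tested probe sets of the opposite sign. The median of the 13 was 0.05. Limma called 0 of 3 tested proprotein convertases in either fit, the enzymes that activate the MMP14 and MMP28 proenzymes, where 0 had an unadjusted p under 0.05 without the block and 1 with it. FURIN was at 40.4 ± 7.77 in TAT-2 and 22.2 ± 17.9 in vector (SD, n = 3 each, limma adjusted p = 0.727, and 0.133 with the block), and PCSK7 at 105 ± 38.7 in TAT-2 and 71.7 ± 13.8 in vector (limma adjusted p = 0.782, and 0.292 with the block). The 1 other tested probe set of PCSK7 had the opposite sign. Limma called 0 of 5 tested RECK and WNT7 partners, with LRP6 at a log2 fold change of -0.25 and FZD4 at -0.45. The 2 other tested probe sets of LRP6 had the opposite sign. Of 7 tested genes listed with BSG as its partners limma called 0, with NPTN at -0.22 and ATP1B2 at -0.18. No monocarboxylate transporter was among those tested. SLC16A7 and SLC16A8 lay below the filter, and SLC16A1 and SLC16A3 were not read here. In each of these last lists, 0 genes had an unadjusted p under 0.05 without the block and 1 with it. All calls made with the block, MMP1 included, were lost when its fit had no intensity trend.

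**Figure D4:**
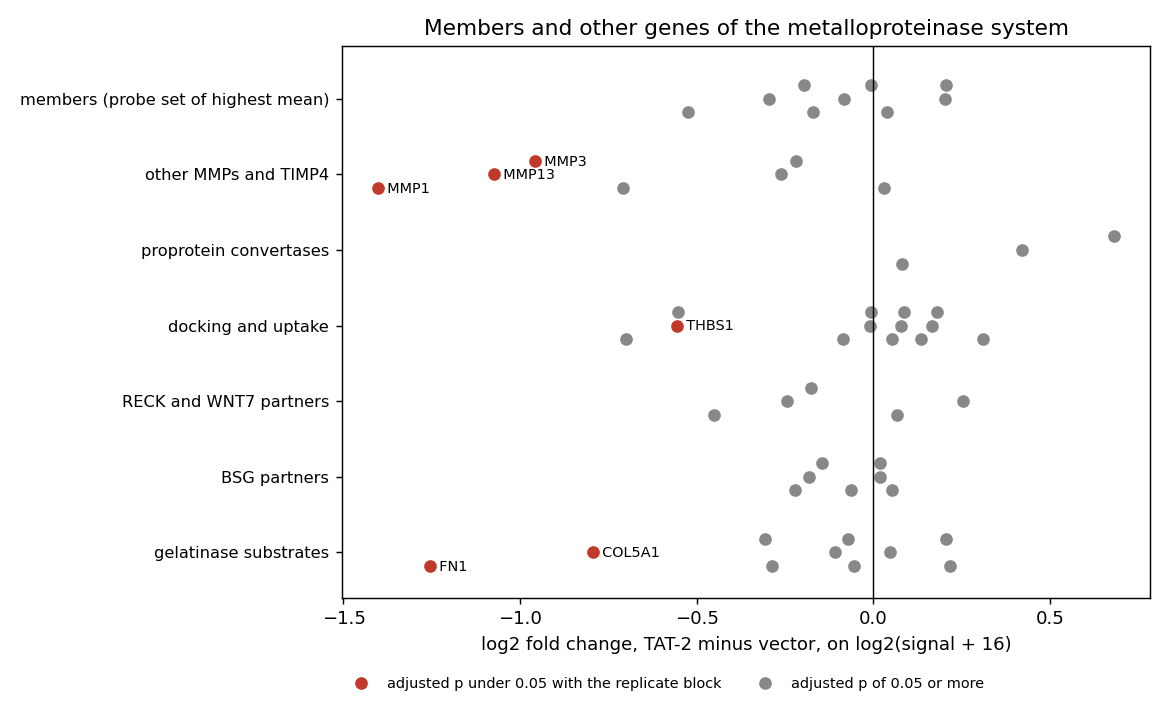
Log2 fold change (TAT-2 minus vector, on log2(signal + 16)) of the 9 tested members and of the tested genes of 6 lists, 1 point per gene, red where limma called it with the replicate block. Red points occur among the other metalloproteinases (MMP1, MMP3, MMP13), the docking partners (THBS1) and the substrates (FN1, COL5A1), and all lie below 0. MMP13 passed the filter only through its vector arrays, and its call was lost with no filter.

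MMP2 and the TIMPs are also made by fibroblasts and MMP9 by leukocytes. Of 10 fibroblast markers 4 passed the filter, and their summed signal was 179 to 188 in TAT-2 and 156 to 206 in vector over all 10. Those 4 were COL1A1 (mean 87.3 in TAT-2 and 72.4 in vector), DCN (28.2 in TAT-2 and 22.8 in vector), FBLN1 (23.6 in TAT-2 and 27.9 in vector) and THY1 (15.99 in TAT-2 and 18.1 in vector), each with overlap. COL1A2, COL3A1, LUM, PDGFRA, PDGFRB and POSTN were below the filter, with means of at most 10.1. Of 8 leukocyte markers with a probe set 5 passed, with a sum of 261 to 314 in TAT-2 and 245 to 350.0 in vector, and the defining marker PTPRC, below the filter, had means of 5.99 in TAT-2 and 3.18 in vector. Of those that passed, LAPTM5 averaged 159 in TAT-2 and 160.4 in vector, CSF1R 20.2 in TAT-2 and 20.6 in vector, and ITGAM 13.5 in TAT-2 and 18.7 in vector. CD14 averaged 49.3 in TAT-2 and 23.3 in vector with overlap (limma adjusted p = 0.835, and 0.0668 with the block). ITGB2 averaged 30.5 in TAT-2 and 52.8 in vector without overlap (limma adjusted p = 0.423, and 0.0948 with the block). Of 7 endothelial markers 1 passed, with a sum of 50.1 to 66.8 in TAT-2 and 45.8 to 56.5 in vector. The ranges of the TAT-2 and vector sums overlapped for each of these lists, and their part in the members' values was not tested.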

How the data were processed

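RNA of 6 samples was read on Affymetrix arrays, 2 µg of total RNA each, per the labels' protocols. The authors deposited intensities on a linear scale, computed with MAS5 per the submitters' processing notes, which give no version here. The mean of signals between percentiles 2 and 98 was 99.99 on every array, so the authors' scaling was kept.

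Of 54675 probe sets, 62 controls were left out. The platform annotation gave 41097 probe sets 1 symbol, of which 41043 were updated by gene identifier to a GRCh38.p14 gene table and 54 kept the name given. It gave 1801 several symbols, which name no gene, and 11777 none. Signals were taken as log2(signal + 16), and tested in R 4.3.3 by limma 3.58.1 with group as the only term and an intensity trend in eBayes, with Benjamini-Hochberg adjustment at 0.05 over all tested probe sets. The code of the fits without and with the replicate block was run on simulated data. The simulated replicate shifts were smaller than those of MMP14, so that run does not show how the fits do at such shifts. Precision is limited by having only 3 arrays in a group.

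After subtraction of group means, arrays sharing a number correlated at r = 0.64 (replicate 1), 0.39 (replicate 2) and 0.25 (replicate 3), each above the 0.1 set for using the number, taken from the titles, as a block. What a number marks is not stated in the labels. TAT-2 replicate 2 with vector replicate 3 gave 0.32, and TAT-2 replicate 3 with vector replicate 2 gave 0.2, both also above 0.1. The criterion therefore sets replicate 1 apart but cannot tell whether replicates 2 and 3 pair by number.

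The 10 members, the lists and the tests were chosen with earlier results of these data known. Every member probe set is given, by its signals or their range, and of each list up to 4 genes called in either fit, or otherwise the 2 of smallest p. The trypsinogens and, for MMP2, MMP9 and MMP14, the 2 genes of highest r are also named. So are MMP10 and the monocarboxylate transporters listed with BSG. The marker genes named were chosen after their values were seen. Alternatives were other pseudocounts, filters, scalings and probe sets, no intensity trend, the block, a batch factor and arrays left out.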

Additional observations from a re-analysis of the deposited data

How the results depend on the processing

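Limma called 0 of the tested member probe sets under each of 27 alternatives but 1, which was added after seeing the data: with the replicate block and without replicate 1 of both groups it called 1 (TIMP2). Of 598 member fold changes under these alternatives, 562 kept their direction and stayed uncalled, and 35 turned direction, 31 of them with arrays left out. Those of MMP2, TIMP1 and TIMP2 never turned. The replicate block changed no other member call.

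Over all probe sets, the count of 8 became 13 with quantile normalization, 24 with array medians centred, 5 without the intensity trend and 35 without probe sets ending in _x_at or _s_at. It was 1424 with the replicate block, 1232 with replicate 1 as a batch factor, 415 with the block and no filter, and 0 with the block and no trend (4260 at an unadjusted p under 0.05). With the block it was 1296 and 1500 at pseudocounts of 1 and 64, 1584 with quantile normalization and 1372 with medians centred. Without replicate 1 of both groups it was 296, and 795 with the block. With the block it was 659 without replicate 2 and 1393 without replicate 3 of both groups. With single arrays left out it ranged from 0 (without TAT-2 replicate 2 or 3, or vector replicate 2 or 3, with 1652, 1730, 1499 and 1471 at an unadjusted p under 0.05) to 29.

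The count of called list genes, 1, became 0 without a filter, with the filter at percentile 70 and without the trend, 2 with medians centred or without the _x_at and _s_at probe sets, 6 with the block or the batch factor, 5 with the block and no filter and 0 with the block and no trend. The 6 with the block include MMP13, which passed the filter only through its vector arrays. With the block the count was 6 at either pseudocount, 7 with quantile normalization and 9 with medians centred. Without replicate 1 of both groups it was 5, and with the block 8, 7 and 6 without replicate 1, 2 or 3 of both groups. With single arrays left out it ranged from 0 to 1.

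RECK 216153_x_at (-0.007) turned to 0.002 with quantile normalization and 0.001 with medians centred, with and without the block. Without replicate 1 of both groups, with and without the block, it was 0.001, MMP14 160020_at -0.095, MMP14 202827_s_at -0.113, TIMP3 201149_s_at -0.006 and ATP1B2 0.009. With the block and without replicate 2 of both groups, MMP14 202828_s_at was 0.002, RECK 205407_at -0.13 and MMP28 222937_s_at 0.051, and without replicate 3 RECK 216153_x_at was 0.088. With single arrays left out, log2 fold changes that turned ranged from -0.385 to 0.33 (MMP14 160020_at), -0.366 to 0.372 (202827_s_at), -0.472 to 0.154 (202828_s_at), -0.655 to 0.01 (217279_x_at), -0.133 to 0.461 (MMP9), -0.497 to 0.046 (BSG), -0.074 to 0.218 (TIMP3 201149_s_at), -0.197 to 0.195 (RECK 205407_at), -0.166 to 0.16 (RECK 216153_x_at), -0.177 to 0.059 (MMP28 224207_x_at) and -0.368 to 0.029 (ATP1B2). The cause was not tested. Dim probe sets, such as those of MMP15, lie too near the background for a difference to be read.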
